A study of Mus musculus with 6 samples.

Results

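The axon guidance ligands and receptors were taken from the deposited tables by name: every protein-coding gene whose symbol begins with Sema, Plxn, Efna, Efnb, Epha, Ephb, Slit or Robo (the Slitrk genes left out), with *Nrp1*, *Nrp2*, *Ntn1*, *Ntn4* and *Unc5b*. Of 57 such genes among the 23424 in the tables, 52 had at least 10 counts summed over the 6 libraries and are the members described here, among 14776 protein-coding genes that met the same minimum and were tested. The 5 left out were *Sema3e* with 0 summed counts, *Efna3* with 2, *Efnb3* with 4, *Sema3g* with 5 and *Ephb1* with 6. The member just above the minimum was *Sema6c*, with 11 counts. The libraries are bulk RNA-seq of tumor-associated macrophages (TAMs) sorted as F4/80high or F4/80low from intradermal YUMM1.7 melanomas of untreated female wild-type C57Bl/6J mice, which were 8 weeks old at tumor induction and were sampled on day 21. YUMM1.7 is 1 mouse melanoma line, so all 6 libraries share that tumor. Each replicate is a pool of 10 tumors from 1 of 3 independent experiments, sorted into live CD45+ CD11b+ cells with high or low F4/80 after a lineage exclusion (Lin-) that the study's methods give, which gave 3 libraries of each subset.

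Axon guidance cues steer growing nerve fibers and are also used by immune cells, blood vessels and tumors. Semaphorins are secreted or membrane-bound ligands of the plexins, and most of the secreted class 3 semaphorins also need a neuropilin, a co-receptor that binds VEGF as well. Ephrins are held on the cell surface and bind Eph receptor tyrosine kinases on a neighboring cell, so that signals can run into both cells. Slits bind Robo receptors, and netrins bind receptors such as UNC5B.

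Levels are given as CPM, the count of a gene scaled to the library size with TMM, in the order of replicates 1, 2 and 3. A log2 fold change is the F4/80high level over the F4/80low level, so a positive value means higher in F4/80high. It was fitted with edgeR's quasi-likelihood test with a term for the replicate number (the replicate block), and a gene was called when its Benjamini-Hochberg adjusted p over all tested genes was under 0.05 and its absolute log2 fold change was above 1. Total counts ran from 16045281 to 43604373 reads, and 3 counts stood for 0.0582 to 0.342 CPM. Replicates 1 and 2 were taken as batch 1 and replicate 3 as batch 2 from a supplementary PCA plot of the study. The sample labels give no batch, and what the batches are is not stated. The replicate 3 libraries had the lowest totals of both subsets, with 17.1% and 16.1% of counts on *Lars2*, *Gm23935* and *Gm15564* together, a share of 0.378% to 0.609% in the other 4. *Adgre1*, which encodes F4/80, stood at 273, 539 and 360 CPM in F4/80high against 243, 326 and 183 CPM in F4/80low, higher in 3 of 3 pairs with a log2 fold change of 0.62 (SE 0.21, adjusted p = 0.35).

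Of the 52 members, *Nrp1* alone was called, as higher in F4/80high, beside 0.514% of all tested genes (0.23% higher and 0.284% lower). DESeq2 with the same replicate block called 4 members, *Nrp1* as higher and *Efnb2*, *Epha4* and *Sema7a* as lower, beside 0.893% of all genes called higher and 1.52% lower. With a term for the 2 batches in place of the block, edgeR called 0 members and 0 genes, although 1118 genes had an unadjusted p under 0.05, among them 1 member that was higher in F4/80high (beside 3.26% of genes) and 5 that were lower (beside 4.3%). DESeq2 with the batch term called *Epha4* alone, as lower, beside 0.311% of all genes called higher and 0.704% lower. At an unadjusted p under 0.05 in the blocked edgeR fit there were 9 members (17.3%), against 9.84% of all genes. *Nrp1* and *Plxna1* were the members higher in F4/80high, against 3.96% of genes, and *Efnb2*, *Epha4*, *Plxnc1*, *Sema4a*, *Sema4d*, *Sema6b* and *Sema7a* were lower, against 5.88%. In bulk samples, fewer cells of a type and less RNA per cell cannot be told apart.

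**Figure D1:**
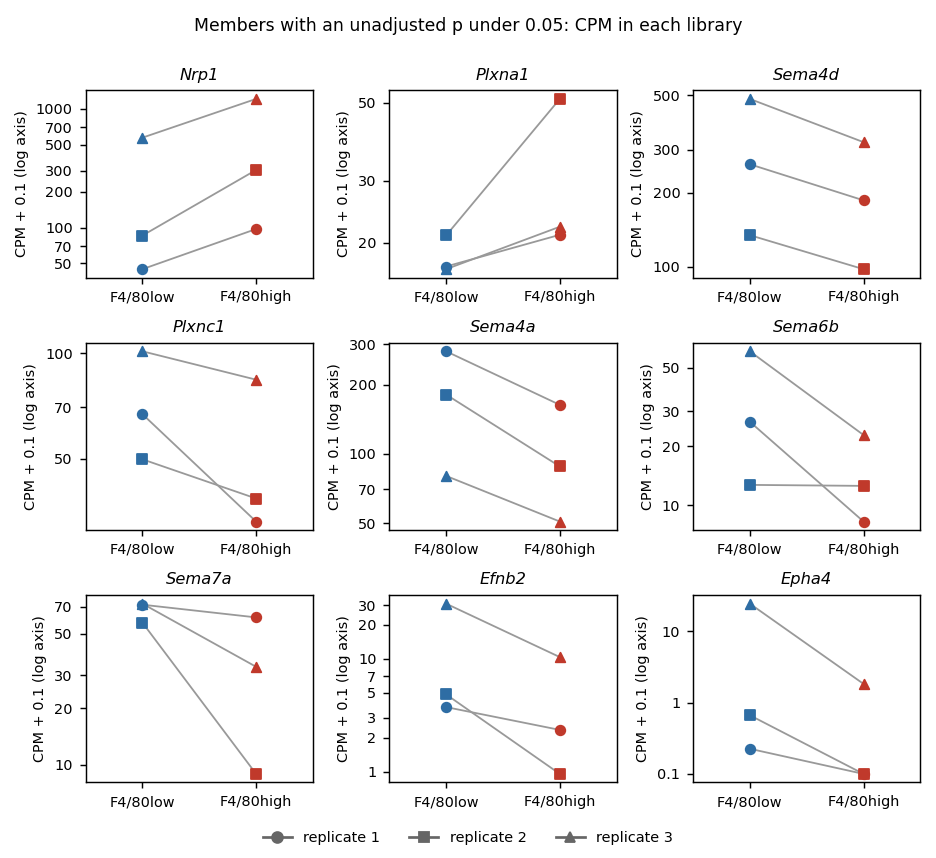
CPM plus 0.1 on log axes in the 3 libraries of each subset for the 9 members with an unadjusted p under 0.05 in the blocked fit; lines join libraries of the same replicate number, with circles, squares and triangles for replicates 1, 2 and 3. *Nrp1* ran from 97.2 to 1211 CPM in F4/80high and from 44.6 to 571 CPM in F4/80low and was higher in F4/80high in each pair, while *Epha4* was at 0 in 2 of the 3 F4/80high libraries.

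The fitted log2 fold change was negative for 36 of the 52 members (69.2%), against 50.4% of all genes, and the median was -0.41 over the members and near 0 over all genes. Lower levels in F4/80high in all 3 pairs were seen for 18 members (34.6%, against 15.7% of all genes) and higher levels in all 3 pairs for 6 (11.5%, against 16%). This lean was uneven across pairs. The median log2 ratio of the members was -0.25 in pair 1, -0.97 in pair 2 and -0.07 in pair 3, and 55.8%, 73.1% and 53.8% of members were lower in those pairs, against 48.2%, 51% and 46% of all genes. Without replicate 2 of both subsets, 27 of 52 members had a negative fold change (51.9%, against 50.9% of all genes), and the median was -0.16. In pairs 1 and 3 together, 20 members (38.5%) were lower in both, against 26.8% of genes. By role, 6 of 6 ephrins, 8 of 9 Eph receptors, 7 of 9 Slits, netrins and their receptors, 7 of 12 membrane-bound semaphorins and 3 of 5 class 3 semaphorins had a negative fold change, against 5 of 11 plexins and neuropilins. The groups' medians were -0.39, -0.82, -0.28, -0.39, -0.11 and 0.06 in that order. Fewer members were lower in all 3 pairs: 2, 4, 2, 6, 1 and 3 in the same order.

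**Figure D2:**
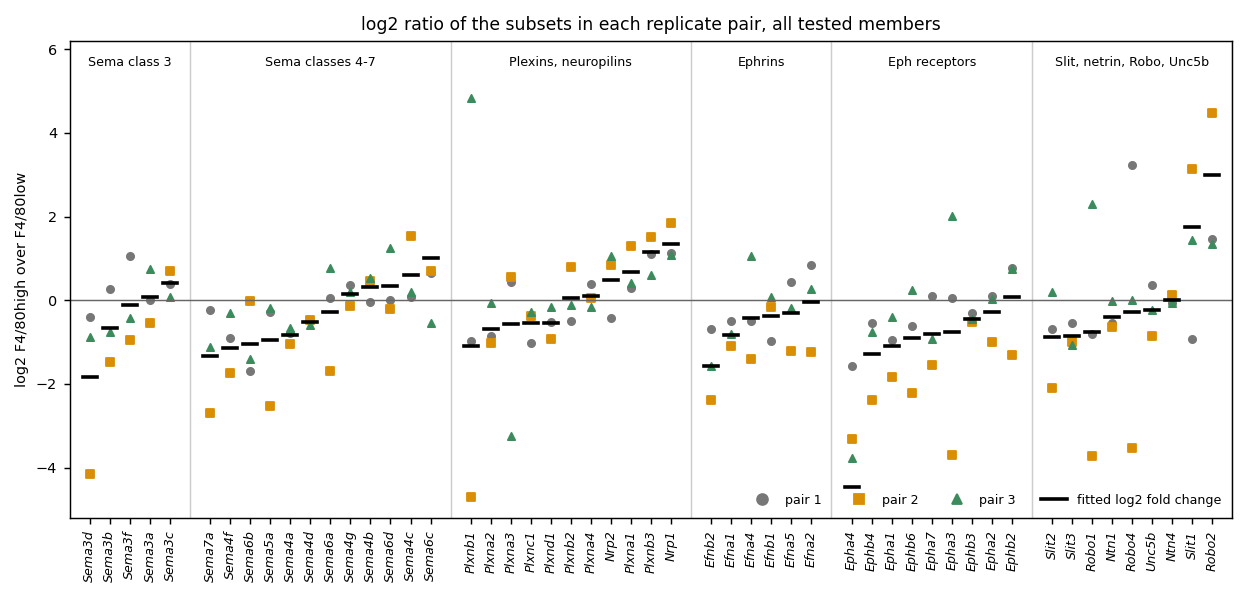
The log2 ratio of F4/80high over F4/80low in each replicate pair (circles, squares and triangles for pairs 1, 2 and 3) and the fitted log2 fold change (black bars) for all 52 tested members, grouped by role. The median log2 ratio over the members was lowest in pair 2, at -0.97, against -0.25 in pair 1 and -0.07 in pair 3.

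Markers of other cells moved with the same contrast. Of 10 neutrophil markers, 10 were lower in F4/80high in every pair and 6 were called lower, and their summed level was 752 to 2144 CPM in F4/80high against 1532 to 4899 CPM in F4/80low. Negative fold changes were also found for 8 of 8 eosinophil markers (175 to 522 against 386 to 1500 CPM in sum), 10 of 10 mast cell and basophil markers (41.6 to 344 against 110 to 892 CPM), 10 of 10 dendritic cell markers (111 to 390 against 203 to 710 CPM) and 10 of 10 fibroblast markers (481 to 1572 against 1149 to 1978 CPM). The dendritic cell list held 1 called gene and the eosinophil, mast cell and basophil, and fibroblast lists 0, with an unadjusted p under 0.05 for 6, 5 and 3 of their genes. In pair 2, where the members lay lowest, the fibroblast sum was 481 CPM in F4/80high against 1149 CPM in F4/80low, and the Schwann cell and neuron sum was 7.39 and 40.4 CPM. These lists were not alone. Every list but the macrophage and melanoma lists had the lower sum in F4/80high of that pair. The lowest log2 ratio was that of the eosinophil sum (-2.50), and the macrophage and melanoma sums were higher (1.03 and 0.94). The part of these cells in the members' levels was not tested.

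Macrophage markers summed to 7714 to 26951 CPM in F4/80high and 8762 to 13204 CPM in F4/80low, and were above every other list in each library. Among them *C1qa*, a complement component made by macrophages, was called higher in F4/80high, with a log2 fold change of 2.11 (SE 0.27, adjusted p = 0.0281, and 0.516 with the batch term). The sums of every list, those above included, overlapped between subsets. In the remaining lists 0 genes were called. Negative fold changes were found for 6 of 6 tested Schwann cell and neuron markers (median -0.89) and 7 of 8 endothelial markers. They were also found for 5 of 7 pericyte, 2 of 5 melanoma, 2 of 3 keratinocyte and 4 of 8 B and plasma cell markers. Positive ones were found for 9 of 9 T and NK cell markers (median 0.70, 2 with an unadjusted p under 0.05). Median log2 ratios in pairs 1, 2 and 3 were 1.46, -0.73 and 1.25 for the T and NK cell markers. They were 0.10, -3.01 and -0.08 for the Schwann cell and neuron markers. Of these 2 lists, 0 and 1 markers kept their direction in all 3 pairs, in that order. Endothelial markers summed to 32.2 to 82.7 against 39.2 to 87.6 CPM with *Tek* at 3 counts or fewer in every library, pericyte markers to 55.4 to 144 against 78.9 to 216 CPM with *Abcc9* at 3 or fewer, and melanoma markers to 20.8 to 169 against 14.8 to 109 CPM with *Mlana* at 3 or fewer. Keratinocyte markers summed to 8.79 to 19.0 against 14.9 to 22.6 CPM, with *Dsp* and *Krt15* at 0, T and NK cell markers to 330 to 2065 against 154 to 942 CPM, and B and plasma cell markers to 11.1 to 150 against 6.72 to 137 CPM. The study's antibodies included B220, CD3e and NK1.1, markers of lymphocytes that a lineage gate would remove.

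**Figure D3:**
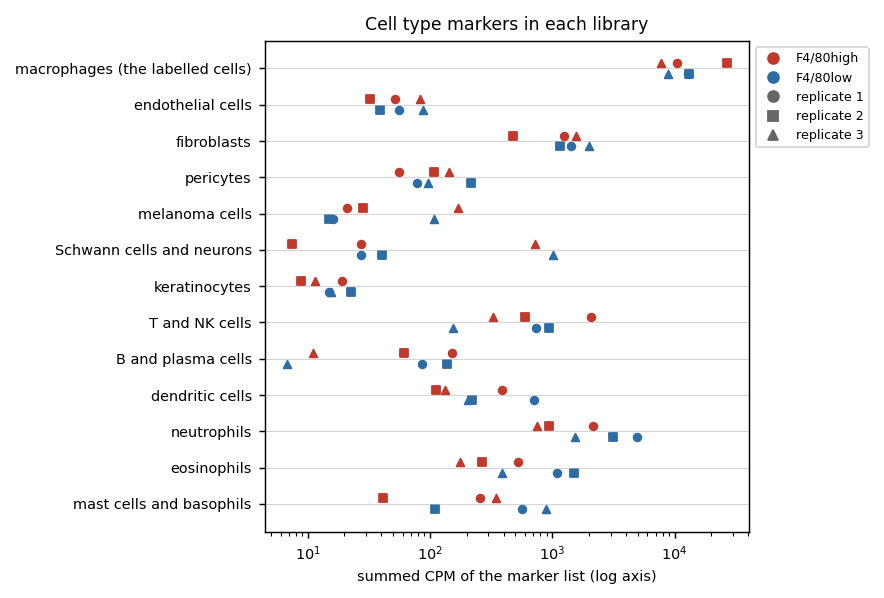
Summed CPM of each cell type's marker list in each library on a log axis, with F4/80high in red, F4/80low in blue and shapes for the replicate number. Neutrophil markers ran from 752 to 2144 CPM in F4/80high and from 1532 to 4899 CPM in F4/80low, and Schwann cell and neuron markers stood at 716 and 1015 CPM in the replicate 3 libraries.

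*Nrp1*, the co-receptor for class 3 semaphorins and VEGF, stood at 97.2, 306 and 1211 CPM in F4/80high against 44.6, 85.6 and 571 CPM in F4/80low. The ranges overlapped, and F4/80high was the higher library in each pair, by log2 ratios of 1.12, 1.83 and 1.08. The fitted fold change was 2.54-fold higher (log2 1.35, SE 0.22, adjusted p = 0.0414), and it was positive under each alternative, between 0.76 and 1.76. The call was narrow. It held without replicate 1 (adjusted p = 0.000603) or replicate 2 (0.0446) of both subsets and was lost without replicate 3 (0.113). With the batch term the adjusted p was 0.509 in edgeR and 0.0623 in DESeq2, and leaving out any single library in that edgeR fit gave 0.0599 to 1. The call was also lost in the blocked fit under filterByExpr (0.0618), with at least 10 counts in every library (0.0502) and over all biotypes (0.0579). *Nrp2*, the other neuropilin, stood at 31.8, 80.8 and 137 CPM in F4/80high against 43.0, 45.4 and 65.9 CPM in F4/80low. F4/80high was the lower library of pair 1 and the higher one of pairs 2 and 3, and its log2 fold change of 0.49 was not called (SE 0.30, adjusted p = 0.67).

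Among the plexins, the semaphorin receptors proper, 0 of 9 were called. *Plxna1*, which can pair with TREM2 as a receptor for SEMA6D, stood at 21.0, 51.3 and 22.1 CPM in F4/80high against 17.0, 20.9 and 16.7 CPM in F4/80low. Its ranges did not overlap, by a gap of 21.0 against 20.9 CPM, and its log2 fold change was 0.67 (SE 0.29, adjusted p = 0.495). Non-overlapping ranges with F4/80high above were found for 3 members, *Plxna1*, *Plxnb3* and *Robo2* (5.77%, against 2.27% of all genes), and with F4/80high below for *Plxna2* alone (1.92%, against 2.88%). *Plxnc1*, the receptor of SEMA7A, lay in the other direction, at 33.0, 38.4 and 83.9 CPM against 66.9, 49.7 and 101 CPM, lower in 3 of 3 pairs (log2 fold change -0.55, SE 0.23, adjusted p = 0.479). *Plxnd1*, a receptor of SEMA3E and of class 4 semaphorins, showed the same order, at 25.2, 15.8 and 77.0 CPM against 36.3, 29.9 and 85.7 CPM (log2 fold change -0.53, SE 0.24, adjusted p = 0.521). *Plxnb2*, a receptor of class 4 semaphorins and the plexin with the highest level per kilobase, was at 82.8, 155 and 139 CPM against 117, 88.7 and 151 CPM, with a log2 fold change of 0.06 that turned negative without replicate 2 (-0.35). *Plxna3* stood at 2.60, 2.10 and 1.51 CPM against 1.90, 1.40 and 14.9 CPM, so that its fold change of -0.57 rested on F4/80low replicate 3 and was 0.52 without replicate 3. The remaining plexins were low: *Plxna4* ran from 3.81 to 6.63 CPM, *Plxnb3* from 0.54 to 2.27 CPM, *Plxna2* from 0.815 to 2.51 CPM and *Plxnb1* from 0 to 1.73 CPM over the 6 libraries.

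The promoters of the 4 members called by edgeR or DESeq2 with the block are shown, since these are the genes on which the comparison turns. Each is the 250 bases before the RefSeq start on build GRCm38.p6, 5′ to 3′ on the gene's strand: chr8:128358823-128359072 (+) for *Nrp1*, chr8:8661243-8661492 (-) for *Efnb2*, chr1:77515089-77515338 (-) for *Epha4* and chr9:57939862-57940111 (+) for *Sema7a*. The genes themselves span chr8:128358604-128503363, chr8:8617434-8661242, chr1:77367185-77515088 and chr9:57940112-57962865 in GENCODE M21 (GRCm38). Capitals mark matches, on either strand, to the PU.1 core GAGGAA, the AP-1 site TGANTCA, the hypoxia response core ACGTG and the GC box GGGCGG. The *Nrp1* window lies inside the span of the gene in GENCODE M21, which begins upstream of the window.
Nrp1: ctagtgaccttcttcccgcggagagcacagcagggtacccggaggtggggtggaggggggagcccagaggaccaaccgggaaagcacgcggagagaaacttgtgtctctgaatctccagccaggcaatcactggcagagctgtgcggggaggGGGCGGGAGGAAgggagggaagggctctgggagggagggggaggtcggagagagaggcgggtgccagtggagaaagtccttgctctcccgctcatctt
Efnb2: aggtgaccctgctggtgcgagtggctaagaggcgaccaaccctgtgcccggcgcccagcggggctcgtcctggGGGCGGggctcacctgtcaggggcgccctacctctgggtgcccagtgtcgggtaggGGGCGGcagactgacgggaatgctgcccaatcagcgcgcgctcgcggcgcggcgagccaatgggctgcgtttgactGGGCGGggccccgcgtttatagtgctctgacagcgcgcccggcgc
Epha4: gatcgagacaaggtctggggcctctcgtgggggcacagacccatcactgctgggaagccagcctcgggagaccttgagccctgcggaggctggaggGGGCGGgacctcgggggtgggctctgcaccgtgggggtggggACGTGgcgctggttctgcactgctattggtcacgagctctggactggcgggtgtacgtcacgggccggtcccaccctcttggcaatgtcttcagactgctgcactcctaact
Sema7a: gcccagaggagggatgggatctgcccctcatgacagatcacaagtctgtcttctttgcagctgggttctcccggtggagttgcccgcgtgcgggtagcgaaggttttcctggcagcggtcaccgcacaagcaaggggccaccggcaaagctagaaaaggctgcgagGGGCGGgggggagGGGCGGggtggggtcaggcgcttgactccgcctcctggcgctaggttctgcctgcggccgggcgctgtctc
The PU.1 core occurred in *Nrp1* alone among these, where it directly follows the GC box in a single run of capitals, and in 23.1% of 27025 RefSeq promoters of this length. The GC box occurred 1 time in *Nrp1* and in *Epha4*, 3 times in *Efnb2* and 2 times in *Sema7a*, and in 32.9% of all promoters. The hypoxia core occurred in *Epha4* alone (16.6% of all promoters) and the AP-1 site in none of the 4 (6.87%). These are matches of letters and no measure of binding. Of the 52 members, 45 had an entry in the promoter table.

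Of the membrane-bound semaphorins, 0 of 12 were called by edgeR, and 4 had an unadjusted p under 0.05, all lower in F4/80high. *Sema4a*, a ligand that acts on T cells, stood at 163, 88.0 and 50.6 CPM in F4/80high against 279, 181 and 80.0 CPM in F4/80low. Each F4/80high library was below its partner by a similar step, with log2 ratios of -0.77, -1.04 and -0.66, although the ranges overlapped (log2 fold change -0.83, SE 0.19, adjusted p = 0.132). *Sema4d*, a ligand of plexin-B1, plexin-B2 and CD72 that lymphocytes also carry, was as even across pairs, at 186, 97.8 and 322 CPM against 261, 135 and 482 CPM, with log2 ratios of -0.49, -0.46 and -0.58 (fitted -0.51, SE 0.18, adjusted p = 0.376). *Sema7a*, a GPI-anchored ligand of plexin-C1 and integrins, was less even, at 61.1, 8.83 and 33.3 CPM against 71.5, 57.4 and 72.4 CPM. Its F4/80low libraries were alike and its F4/80high libraries were not, and F4/80high replicate 2 was the lowest. The log2 fold change was -1.33 (SE 0.43), with an adjusted p of 0.305 in edgeR and 0.0169 in DESeq2 with the block, and -0.70 without replicate 2. With the batch term it was -0.96 in edgeR (adjusted p = 0.706) and -0.97 in DESeq2 (adjusted p = 0.559). *Sema6b* stood at 8.19, 12.5 and 22.7 CPM against 26.5, 12.6 and 60.5 CPM, lower in pairs 1 and 3 and nearly level in pair 2 (log2 fold change -1.05, SE 0.36, adjusted p = 0.351).

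The other membrane-bound semaphorins showed no common direction. *Sema5a* stood at 23.9, 6.07 and 145 CPM in F4/80high against 28.8, 35.2 and 166 CPM in F4/80low, and F4/80high replicate 2 was again the lowest library. *Sema4b* stood at 8.34, 12.7 and 69.1 CPM against 8.54, 9.23 and 47.6 CPM (log2 fold change 0.32, adjusted p = 0.744), and *Sema4c* at 15.9, 13.3 and 12.2 CPM against 14.9, 4.57 and 10.7 CPM (0.60, adjusted p = 0.683). *Sema6d*, a ligand of plexin-A1, stood at 9.80, 9.16 and 40.1 CPM against 9.75, 10.6 and 16.9 CPM, and its fold change of 0.33 rested on replicate 3 (-0.10 without it). *Sema6a* ran from 1.26 to 23.9 CPM, *Sema4f* from 0.155 to 4.33 CPM and *Sema4g* from 0.301 to 1.19 CPM. *Sema6c* held 3 counts or fewer in every library and is given no fold change.

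The secreted class 3 semaphorins, ligands of the neuropilin and plexin-A complexes, held 0 called members and 0 with an unadjusted p under 0.05. *Sema3a*, the ligand of neuropilin-1, was the most abundant per kilobase, at 17.9, 15.7 and 222 CPM in F4/80high against 17.8, 23.0 and 131 CPM in F4/80low. Both subsets were above 100 CPM in replicate 3 and under 25 CPM in replicates 1 and 2, and the log2 fold change was 0.07 (SE 0.27, adjusted p = 0.965) and -0.27 without replicate 3. *Sema3c* stood at 3.25, 3.72 and 4.10 CPM against 2.48, 2.26 and 3.87 CPM, higher in 3 of 3 pairs (0.40, SE 0.54, adjusted p = 0.868). *Sema3f*, the ligand of neuropilin-2, stood at 6.15, 1.71 and 3.46 CPM against 2.91, 3.36 and 4.67 CPM, with a fold change of -0.11 whose sign depended on the fit. *Sema3d* stood at 2.29, 0.0194 and 1.94 CPM against 3.03, 1.40 and 3.64 CPM, and *Sema3b* at 3.02, 1.71 and 0.648 CPM against 2.48, 4.89 and 1.14 CPM, and neither was called (adjusted p = 0.665 and 0.815).

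Of the ephrins, 0 of 6 were called by edgeR. *Efnb2*, the transmembrane ligand of EPHB4 and EPHA4 known from arteries, stood at 2.24, 0.854 and 10.3 CPM in F4/80high against 3.63, 4.74 and 30.7 CPM in F4/80low. It was lower in 3 of 3 pairs, with a log2 fold change of -1.57 (SE 0.45), an adjusted p of 0.229 in edgeR and 0.0245 in DESeq2 with the block, and 0.0652 in DESeq2 with the batch term. *Efna5*, a GPI-anchored ligand of EphA receptors, had the largest gap between replicates of any member, at 9.70, 4.06 and 740 CPM against 7.17, 9.50 and 837 CPM, while the subsets differed little (log2 fold change -0.31, SE 0.30, adjusted p = 0.786). *Efna1* stood at 1.66, 1.94 and 0.432 CPM against 2.38, 4.17 and 0.797 CPM, lower in 3 of 3 pairs (-0.83, SE 0.71, adjusted p = 0.763). *Efnb1* ran from 4.01 to 7.99 CPM, *Efna2* from 0.66 to 3.35 CPM and *Efna4* from 0.228 to 1.74 CPM.

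The Eph receptors reached 13.3 CPM at most, apart from *Epha4* at 24.3 CPM in F4/80low replicate 3. The largest fitted difference between subsets of any member was that of *Epha4*. *Epha4*, which binds ephrins of both classes, held 0, 0 and 16 counts in F4/80high and 5, 23 and 213 counts in F4/80low, or 0, 0 and 1.73 CPM against 0.125, 0.565 and 24.3 CPM. Each F4/80high library was below its partner, yet most of the reads came from 1 library, F4/80low replicate 3. The log2 fold change was -4.46 (SE 0.84), with an adjusted p of 0.064 in edgeR and 5.0e-05 in DESeq2 with the block, and the value without replicate 3 (-6.87) rests on 5 and 23 counts in F4/80low and 0 in F4/80high. *Epha2* was the Eph receptor with the highest level per kilobase, at 11.6, 6.67 and 10.6 CPM against 10.8, 13.3 and 10.4 CPM, and differed in pair 2 alone (log2 fold change -0.29, SE 0.37, adjusted p = 0.859). *Epha1* stood at 2.47, 1.38 and 5.07 CPM against 4.84, 5.11 and 6.72 CPM, lower in 3 of 3 pairs (-1.09, SE 0.53, adjusted p = 0.566). *Ephb4*, the receptor of ephrin-B2, stood at 2.57, 0.407 and 1.19 CPM against 3.76, 2.38 and 2.05 CPM, also lower in 3 of 3 pairs (-1.28, SE 0.76, adjusted p = 0.656). *Ephb6*, which lacks kinase activity, *Epha7*, *Ephb3*, *Epha3* and *Ephb2* ran from 0 to 4.99 CPM, and 0 of them had an unadjusted p under 0.05.

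Slits, netrins and their receptors held 0 called members of 9 and 0 with an unadjusted p under 0.05. *Slit2* stood at 7.46, 2.46 and 21.3 CPM in F4/80high against 12, 10.8 and 18.7 CPM in F4/80low (log2 fold change -0.87, SE 0.46, adjusted p = 0.61). *Slit3* stood at 6.35, 2.56 and 2.48 CPM against 9.24, 5.13 and 5.24 CPM, lower in 3 of 3 pairs (-0.86, SE 0.44, adjusted p = 0.601). *Ntn1*, the secreted netrin-1, stood at 5.27, 5.02 and 17.2 CPM against 7.67, 7.91 and 17.3 CPM (-0.41, SE 0.34, adjusted p = 0.761), and *Unc5b*, its receptor in macrophages and vessels, at 7.84, 5.10 and 15.2 CPM against 6.04, 9.23 and 17.9 CPM (-0.24, SE 0.37, adjusted p = 0.893). *Robo1*, a Slit receptor, stood at 0.504, 0.213 and 36.1 CPM against 0.927, 3.56 and 7.29 CPM, with F4/80high below its partner in pairs 1 and 2 and above it in pair 3. *Robo2*, *Robo4*, *Slit1* and *Ntn4* stayed between 0 and 1.48 CPM.

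Several members differed widely between replicates in both subsets. Replicate 3 was over 4-fold above the mean of replicates 1 and 2 in both subsets for 7 members (13.5%), against 7.44% of all genes, and over 4-fold below it for 0 members, against 6% of genes. The 7 were *Efna5*, *Epha4*, *Sema3a*, *Sema5a*, *Nrp1*, *Efnb2* and *Sema4b*, and the log2 ratios of replicate 3 ran from 2.59 to 6.73 in F4/80high and from 2.37 to 6.63 in F4/80low. In the same libraries the Schwann cell and neuron markers summed to 716 and 1015 CPM, against 7.39 to 40.4 CPM in the other 4, most of it from *Ncam1*, with 6495 and 8819 counts against 303 to 992, while the neuronal marker *Rbfox3* was at 0 in all 6. Melanoma markers summed to 169 and 109 CPM in replicate 3, against 14.8 to 28.4 CPM, nearly all of it from *Mitf*, at 167 and 104 CPM, while *Pmel* stood at 0.432 and 1.25 CPM and *Mlana* at 0 in both. Replicate 3 is also batch 2 and 1 of the experiments, which cannot be told apart, and the part of other cells was not tested.

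**Figure D4:**
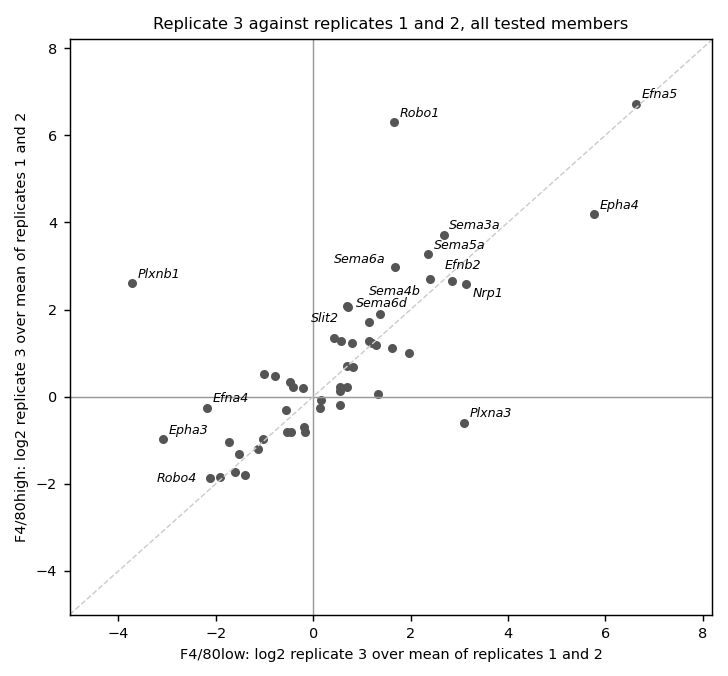
The log2 ratio of replicate 3 over the mean of replicates 1 and 2, in F4/80low (horizontal) and F4/80high (vertical), for the 52 tested members, with 0.1 CPM added to both sides of the ratio and a dashed line of equality. *Efna5* stood at 6.63 and 6.73, and 7 members were above 2 in both subsets.

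Levels were compared between genes as CPM per kilobase of the deposited gene length. The mean over the 6 libraries was at least 100 CPM for 5 members, between 10 and 100 CPM for 15, between 1 and 10 CPM for 25 and under 1 CPM for 7. Per kilobase, *Efna5* and *Nrp1* came first, at 62.3 ± 105 and 91.1 ± 100 in F4/80high, against 70.6 ± 119 and 39.6 ± 49.6 in F4/80low (mean ± SD, n = 3), and for both the SD exceeded the mean. *Sema4d* followed, at 31.3 ± 17.5 and 45.4 ± 27.3, and then *Sema4a*, at 18.6 ± 10.6 and 33.3 ± 18.4, *Plxnb2*, at 17.6 ± 5.31 and 16.7 ± 4.36, and *Sema7a*, at 10.4 ± 7.94 and 20.4 ± 2.56. Among these 6, neighbors in the order differed by less than the larger of their SDs in each subset. *Sema7a* and the next member, *Plxnc1*, differed by less than that in F4/80high and by more in F4/80low, where *Plxnc1* stood at 9.26 ± 3.34. *Plxnc1*, *Plxnd1*, *Sema5a*, *Sema6b*, *Nrp2* and *Sema3a* came next, with means between 5.14 and 7.93 over all libraries. The Eph receptor with the highest level, *Epha2*, stood at 2.06 ± 0.558 and 2.46 ± 0.342, and *Ntn1* and *Unc5b*, the highest of the netrin and Slit group, at means of 1.60 and 1.75.

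**Figure D5:**
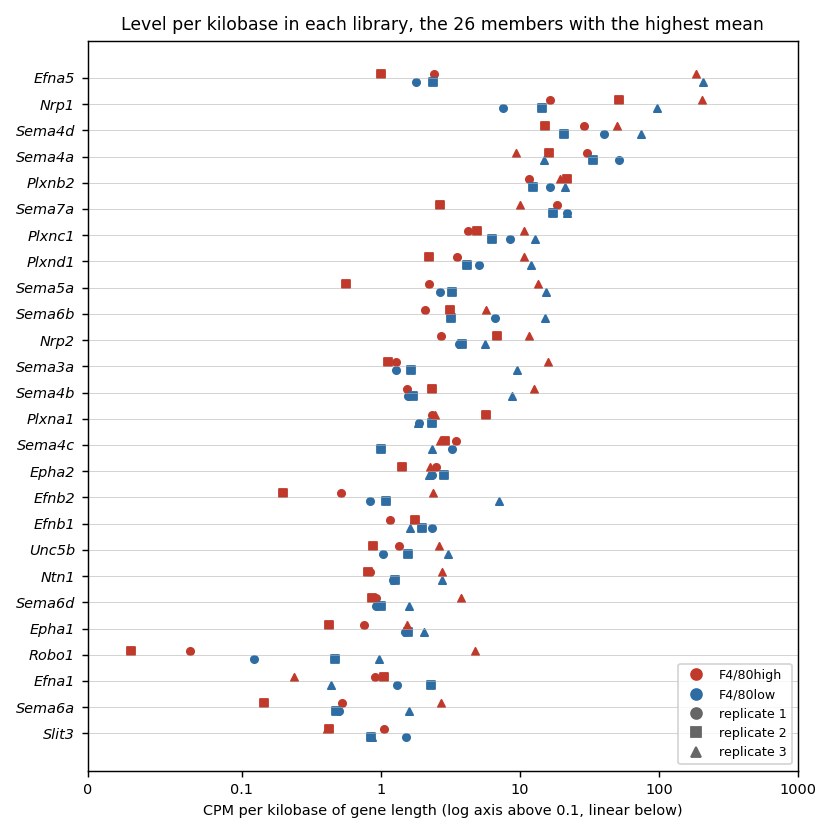
CPM per kilobase in each library for the 26 members with the highest mean level, on an axis that is logarithmic above 0.1, with F4/80high in red, F4/80low in blue and shapes for the replicate number. *Efna5* in replicate 3 stands far to the right of its other libraries in both subsets, while *Sema4d*, *Sema4a* and *Plxnb2* are high in all 6.

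A list of 33 other ligands, receptors and co-receptors of these pathways was written from general knowledge, with earlier results of these data known. Of these, 24 were tested, 11 with a positive and 13 with a negative fold change, and 1 was called. *Trem2*, which joins plexin-A1 in a receptor for SEMA6D, was called higher in F4/80high, at 117, 323 and 52.3 CPM against 52.7, 144 and 17.6 CPM (log2 fold change 1.29, SE 0.20, adjusted p = 0.0391), and its adjusted p was 0.553 with the batch term, 0.0601 without replicate 2 and 0.199 without replicate 3. *Cd72*, a SEMA4D receptor of immune cells, stood at 149, 211 and 51.5 CPM against 70.9, 112 and 23.5 CPM (1.04, SE 0.20, adjusted p = 0.0644, and with the batch term 0.0372 in DESeq2 and 0.456 in edgeR). Both were higher in 3 of 3 pairs. *Kdr*, the VEGF receptor that neuropilin-1 assists, had a fold change of 1.01 (adjusted p = 0.485), and *Adam17*, a sheddase, 0.39 (adjusted p = 0.653). On the other side were *Met*, a partner of plexin-B1 (-1.57, adjusted p = 0.115, and 0.000770 in DESeq2 with the block), *L1cam*, a partner of neuropilin-1 (-1.51, adjusted p = 0.165, and 0.0114 in DESeq2 with the block), *Flrt2*, a ligand of UNC5 receptors (-0.91, adjusted p = 0.388), and *Gpc1*, a heparan sulfate proteoglycan (-0.72, adjusted p = 0.441). With the batch term the adjusted p of *Met* was 0.471 in edgeR and 0.0383 in DESeq2, and that of *L1cam* was 0.546 and 0.180.

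Of 75 genes of the intracellular pathway, 74 were tested and 0 were called by edgeR with the block, with 3 higher and 8 lower at an unadjusted p under 0.05 and a median log2 fold change of -0.12. Lower in F4/80high were *Rnd1*, a small GTPase that binds plexins (-1.45, adjusted p = 0.144, and 0.0252 in DESeq2 with the batch term), *Cdk5r1*, the activator of CDK5 (-1.53, adjusted p = 0.244, and 0.0209 in DESeq2 with the block), *Tiam1*, a Rac exchange factor (-1.0, adjusted p = 0.266), and *Nck2*, an adaptor of Eph receptors (-0.82, adjusted p = 0.347). With the batch term the adjusted p in edgeR was 0.456 for *Rnd1* and 0.616 for *Cdk5r1*, and in DESeq2 it was 0.262 for *Cdk5r1*. The smallest p-values in the other direction belonged to *Dpysl2*, the collapsin response mediator CRMP2 (0.49, adjusted p = 0.382), *Limk1*, a kinase of cofilin (0.73, adjusted p = 0.436), *Vav2* (0.77, adjusted p = 0.452), and *Crmp1* (1.21, adjusted p = 0.605). *Dpysl2* stood at 72.8, 98.8 and 15257 CPM in F4/80high against 43.2, 64.2 and 14394 CPM in F4/80low, so that it shared the gap of *Efna5* between replicate 3 and the other replicates.

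Some values may hold reads of a neighbor. In GENCODE M21, exons of *Plxna1* overlap the antisense gene *Gm26811* over 10.7% of their length, those of *Efna4* overlap *4731419I09Rik* over 10.5%, those of *Sema4c* overlap *D430040D24Rik* over 7.27%, and those of *Epha1* overlap *Zyx* over 6.01%. Without a stated use of strand, reads of such partners cannot be told apart.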

How the data were processed

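RNA was read by poly-A RNA-seq in 6 libraries. The authors deposited, for each library, a table of raw read counts per gene with no normalization, and the gene's length and biotype. The aligner, counting rule, strand and genome build are not given in the sources used here. Genes with the deposited biotype protein-coding and at least 10 summed counts were tested in R 4.3.3 with edgeR 4.0.16 (quasi-likelihood, TMM) and terms for replicate number and subset. DESeq2 1.42.0, other terms, scalings and filters, and left-out pairs or libraries were the alternatives. The pairing comes from the labels' replicate numbers and the study's 3 experiments. Deviations of same-numbered libraries from their subset means correlated at 0.731, 0.708 and 0.893 over 10474 genes. Unlike-numbered libraries of replicates 1 and 2 also correlated, at 0.592 and 0.613. Within batch 1 alone the correlation of same-numbered libraries was 0.238, so most of the higher values cannot be told apart from the gap between batches. No library was a copy of another. P-values of the blocked fit measure how the difference between subsets varied across the pairs of pools, not the spread between animals. Positions and exon overlaps came from GENCODE M21 (GRCm38), which holds 99.3% of the gene IDs, and promoters from RefSeq. The steps were tested on simulated data. The members and lists were chosen with earlier results of these data known. Values in every library are given for members called in a fit with the block or the batch term, for up to 3 of each role list with the smallest p in each direction among those above a mean log2 CPM of 1, and for the 2 with the highest level per kilobase. Of each pathway list, up to 4 genes in each direction are named by p. Members outside this rule are named with their ranges, and the values in every library of *Robo1* and *Sema5a* were chosen after being seen.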

Additional observations from a re-analysis of the deposited data

Results flagged for a closer look

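The antisense gene *Plxna4os1*, which is not protein-coding and enters no comparison of the report, held 857 counts summed over the 6 libraries: 210, 264 and 15 in F4/80high against 100, 252 and 16 in F4/80low, in the order of replicates 1, 2 and 3. It stands out as signal in rows outside the tested genes, above the limit of 3 counts that a count of 0 allows. In CPM it stood at 5.29, 5.12 and 1.62 against 2.51, 6.19 and 1.82. In GENCODE M21 the only gene listed with exons overlapping those of *Plxna4* was *Plxna4os3*, over 0.78% of their length. The use of strand is not stated, and whether the reads of *Plxna4os1* come from *Plxna4* was not tested.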

How the results depend on the processing

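The calls depended on the fit. In the fits with no replicate block, edgeR called 0 members and 0 genes, both with the batch term and with no batch term, and with neither term 0 members had an unadjusted p under 0.05. DESeq2 called 4 members and 357 genes with the block and 150 genes with the batch term. With the block, edgeR called 0 members and 16 genes under filterByExpr, 0 and 48 with at least 10 counts in every library (where 23 of the 34 members left had a negative fold change), 0 and 27 over all biotypes, and 2 members, *Epha4* and *Nrp1*, with at least 1 count. Pairs were left out of the edgeR fit with the block, and single libraries out of the edgeR fit with the batch term. Leaving out a pair or a library gave 0 to 5 members and 0 to 380 genes called and 3 to 12 members with an unadjusted p under 0.05. The high counts came without replicate 1 of both subsets (5 members, 380 genes) and without F4/80high replicate 1 (12 members). Counts of negative fold changes were a check chosen after the data were seen, and ran from 27 without replicate 2 to 37 without replicate 1. *Sema3f* turned positive with the batch term (0.083), with no batch term (0.054) and in DESeq2 with the batch term (0.078). Ranges over left-out pairs or libraries crossed 0 for *Efna5* (-0.68 to 0.071), *Epha2* (-0.50 to 0.029), *Plxna3* (-1.37 to 0.52), *Plxnb2* (-0.35 to 0.34), *Sema3a* (-0.28 to 0.35), *Sema3f* (-0.71 to 0.40), *Sema6d* (-0.10 to 0.58) and *Unc5b* (-0.55 to 0.037). The cause was not tested. Of 475 values of the 48 named genes in fits of all libraries, 444 kept their direction and side of the threshold, 15 lost the call, 13 gained it and 3 turned. Of 432 values with a pair or library left out, 380 kept both, 22 lost the call, 8 gained it and 22 turned. The batch-term fit called 0 genes with all libraries. A call lost without a single library therefore cannot be told apart from the change of term, and is no measure of that library. Depth limits the 7 members under 1 CPM, some of which rest on a few counts in replicate 3.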
